A study of Oryza sativa with 6 samples.

Results

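Dehydrins, the LEA protein gene LEA3 and the lectin gene SALT were followed in rice (Oryza sativa) of the cultivar Nipponbare shortly before dawn and shortly before dusk of the growth chamber. The group was chosen by locus identifier and holds 7 of the 55801 loci in the count files, namely the dehydrin genes RAB16A (LOC_Os11g26790), RAB16B (LOC_Os11g26780), RAB16C (LOC_Os11g26760), LIP9 (LOC_Os02g44870) and RAB25 (LOC_Os01g50700), then LEA3 (LOC_Os05g46480) and SALT (LOC_Os01g24710). Plants of both groups grew on Chu's medium at 28 °C under 12 h of light and 12 h of darkness, with no stress treatment named in the labels. The 3 AM libraries came from plants frozen 30 min before lights on, and the 3 PM libraries from plants frozen 30 min before lights off. Whether replicates came from different plants or cultures is not in the labels, and p-values then reflect only how far these libraries spread, which may be technical.

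Late embryogenesis abundant (LEA) proteins are very hydrophilic proteins that accumulate in drying seeds and in leaves short of water, where they are thought to protect membranes and other proteins. Dehydrins are the LEA family that carries a conserved lysine-rich segment, and the RAB names come from their response to abscisic acid (ABA), the hormone of water deficit. In the ABA pathway, receptors bind the hormone and block clade A PP2C phosphatases. This frees some kinases of the SnRK2 family, whose members are called SAPKs in rice, to activate bZIP transcription factors at stress genes. DREB factors act on many of the same genes during cold and drought.

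Libraries held 13 M to 66.7 M gene counts. All levels below are TMM-normalised CPM, that is raw counts scaled to library size multiplied by a TMM factor. This factor was 0.6489 to 0.8167 in the AM libraries and 1.315 to 1.377 in the PM libraries. The limit that a count of 0 allows, 3 counts in a library, lay between 0.0548 and 0.173 CPM. The labels name whole seedlings as the source and panicle as the organ. RCA, for the Rubisco activase of green leaves, was at 29200 to 44300 CPM in AM and 1150 to 1940 CPM in PM. Of 8 floral MADS-box markers, MADS8 and MADS13 had no count in any library, MADS7 had 1 count in all, and the summed level was 6.28 to 8.65 CPM in AM and 3.28 to 5.17 CPM in PM. Of the 4 tested markers MADS16 fell from 5.33 ± 1.01 to 1.3 ± 0.736 CPM (SD, n = 3; edgeR adjusted p = 0.00384), MADS58 rose from 0.458 ± 0.151 to 1.51 ± 0.336 CPM (SD, n = 3; edgeR adjusted p = 0.00754), and 2 were not called. Of all tested loci, 55.9% were called in either direction.

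LIP9 and SALT were far lower in PM than in AM, RAB25 was lower as well at a low level, and LEA3 did not pass the test. RAB16A, RAB16B and RAB16C were close to the limit of detection at both times. Of the 7 genes, 4 had enough counts to be tested, and 3 of these were lower in PM and 0 higher (0 also at an unadjusted p of 0.05, and 0 by DESeq2 or limma-voom). For comparison, 28% of the 20548 loci tested were lower in PM, and 55.9% differed in either direction, at an adjusted p of 0.05 (edgeR quasi-likelihood test, Benjamini-Hochberg over all tested loci). On the log2 scale the median change from AM to PM was −3.16 for the 4 tested genes and −0.01 for all tested loci, and the 4 that passed the filter on low counts do not stand for the 7. The filter asks for 3 libraries, and RAB25 had 3 in AM and 1 in PM, SALT 3 in AM and 2 in PM. These genes were thus tested through the group in which they were high, which bears on the median and on the number lower.

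**Figure D1:**
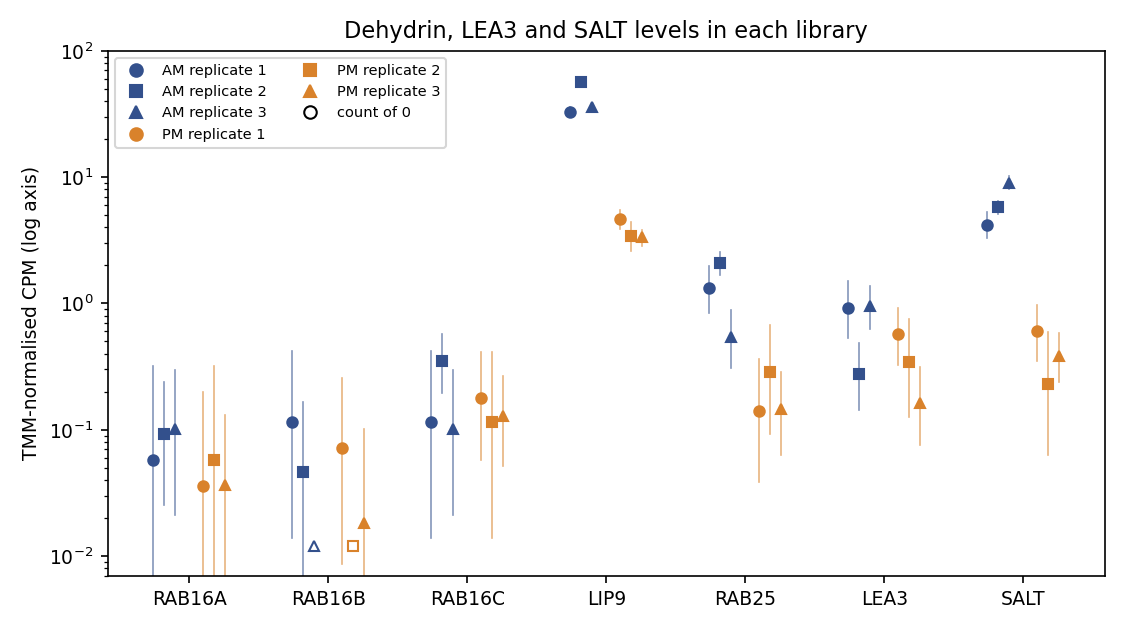
TMM-normalised CPM on a log axis for the 7 genes in each of the 6 libraries, with 95% exact Poisson intervals that cover counting error only; the symbol shape gives the replicate and open symbols at the bottom mark a count of 0. LIP9, RAB25 and SALT lie higher in every AM library than in any PM library, while LEA3, RAB16B and RAB16C overlap and the RAB16A values touch, at 1 to 4 counts a library. Of all tested loci, 64.1% had no overlap between groups.

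LIP9 encodes a dehydrin known in rice as a gene induced by cold and drought and as a target of DREB1A. It was read 570, 2426 and 1048 times in AM replicates 1, 2 and 3, or 32.9, 56.1 and 35.6 CPM. In PM replicates 1, 2 and 3 it had 131, 59 and 182 counts, or 4.66, 3.39 and 3.33 CPM. Every AM library lay above every PM library, and the lowest AM value was 7.06 times the highest PM value; such a lack of overlap was seen at 64.1% of all tested loci. The mean fell from 41.5 ± 12.7 to 3.79 ± 0.752 CPM (SD, n = 3), an 11-fold change. Its log2 fold change was −3.45 (SE 0.27, 95% interval −4.07 to −2.84), at an adjusted p of 1.68e-05 by edgeR. Only 4.16% of the tested loci had a lower fold change, whereas its mean level was near the middle, above that of 54.5% of them. In whole-seedling RNA, fewer cells of a type that hold a transcript and less of the transcript per cell cannot be told apart, here and for the genes below.

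SALT encodes a mannose-binding lectin of the jacalin-related family, first known as a protein that builds up under salt and drought. Its counts were 73, 249 and 267 in AM replicates 1, 2 and 3, which are 4.21, 5.76 and 9.06 CPM. In PM replicates 1, 2 and 3 there were 17, 4 and 21 counts, which are 0.605, 0.23 and 0.384 CPM. All AM libraries were high and all PM libraries low, with 6.96 times between the nearest values, and 64.1% of all tested loci likewise had no overlap between groups. SALT fell from 6.35 ± 2.48 to 0.406 ± 0.188 CPM (SD, n = 3), and its log2 fold change of −3.92 (SE 0.44, 95% interval −4.93 to −2.91; edgeR adjusted p = 0.000117) was the lowest of the 4 tested genes. The intervals of SALT and LIP9 overlap. At 3.28% of the tested loci the fold change was lower than that of SALT.

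RAB25, another dehydrin gene, was scarce in seedlings at both times. AM replicates 1, 2 and 3 held 23, 90 and 16 counts, or 1.33, 2.08 and 0.543 CPM. PM replicates 1, 2 and 3 held 4, 5 and 8 counts, or 0.142, 0.288 and 0.146 CPM. The groups did not overlap, which held for 64.1% of all tested loci, and AM replicate 3 came close to the PM libraries, at 1.89 times the highest of them. RAB25 fell from 1.32 ± 0.769 to 0.192 ± 0.0828 CPM (SD, n = 3), with a log2 fold change of −2.86 (SE 0.62, 95% interval −4.28 to −1.45; edgeR adjusted p = 0.00428). Without AM replicate 2 the gene no longer passed the filter on low counts and had no test. Its 3 AM libraries and 1 PM library passed 0.343 CPM before TMM scaling, the level that the filter asks of 3 libraries.

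LEA3, for a LEA protein of another family than the dehydrins, gave no call. It had 16, 12 and 28 counts in AM replicates 1, 2 and 3, or 0.923, 0.278 and 0.951 CPM. It had 16, 6 and 9 counts in PM replicates 1, 2 and 3, or 0.569, 0.345 and 0.164 CPM. AM replicate 2 lay below PM replicates 1 and 2, so the groups overlapped. The means were 0.717 ± 0.381 and 0.36 ± 0.203 CPM (SD, n = 3). The log2 fold change was −1 (SE 0.65, edgeR adjusted p = 0.224), and its 95% interval ran from −2.49 to 0.49. Summed over libraries, 56 AM and 31 PM counts gave a ratio of AM over PM of 2.01, with an exact counting interval of 1.27 to 3.23 that leaves out the spread between libraries. The ratio ran from 1.29 without PM replicate 3, with an interval of 0.773 to 2.21, to 3.04 without AM replicate 2.

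**Figure D2:**
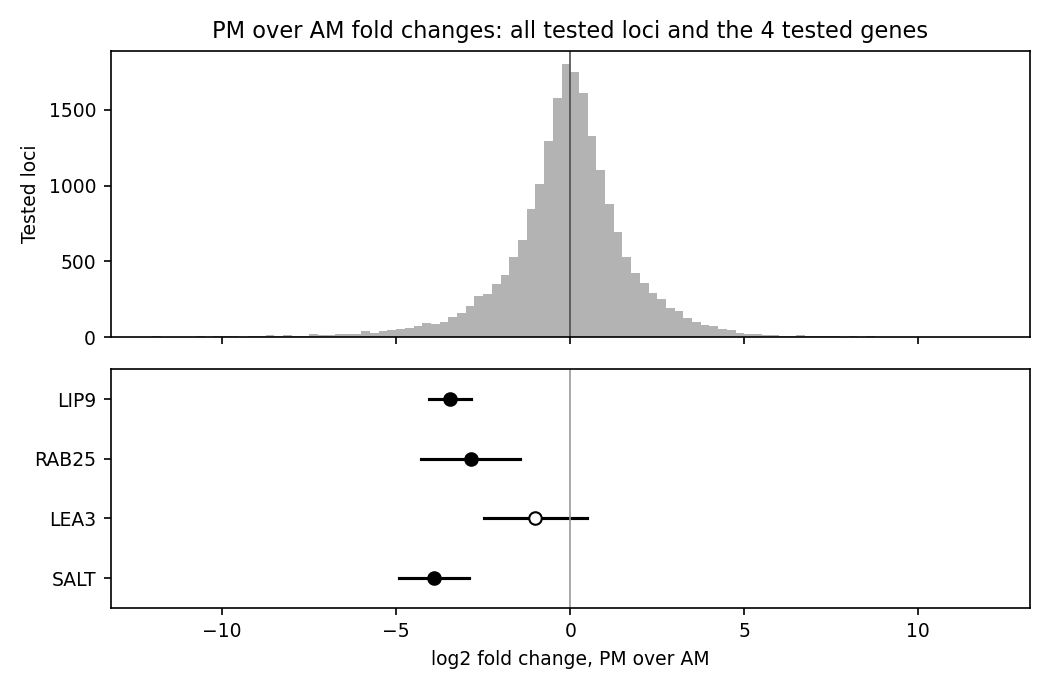
Upper panel, number of tested loci by log2 fold change of PM over AM; lower panel, the 4 tested genes with 95% intervals from the edgeR fit, filled where the adjusted p is below 0.05. The intervals of LIP9, RAB25 and SALT lie to the left of 0 and that of LEA3 spans it.

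The RAB16 genes are dehydrin genes of the ABA response that sit together on chromosome 11. In the RefSeq gene table of another assembly, RAB16D and RAB16C are direct neighbours, as are RAB16B and RAB16A, and 2 genes that code for no protein lie between RAB16C and RAB16B. RAB16A had 1, 4 and 3 counts in AM replicates 1, 2 and 3 and 1, 1 and 2 counts in PM replicates 1, 2 and 3. Only AM replicate 2 exceeded 3 counts. RAB16B had 2, 2 and 0 counts in AM and 2, 0 and 1 in PM, so 0 of the 6 libraries exceeded 3 counts and no fold is given.

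RAB16C exceeded 3 counts in 3 of the 6 libraries, with 2, 15 and 3 counts in AM replicates 1, 2 and 3 and 5, 2 and 7 counts in PM replicates 1, 2 and 3. These are 0.115, 0.347 and 0.102 CPM in AM and 0.178, 0.115 and 0.128 CPM in PM. AM replicate 2 was the highest, and the groups overlapped. The ratio of AM over PM was 1.59 for RAB16C, with an exact counting interval of 0.764 to 3.4, and 2.23 for RAB16A, with an interval of 0.597 to 10.1. Of the 20 AM counts of RAB16C, 15 came from AM replicate 2, and without that library its ratio was 0.765, with an interval of 0.216 to 2.25. A difference was not detectable at this depth for these genes. With no filter on low counts, where 31332 loci were tested, the edgeR adjusted p was 0.454 for RAB16A, 0.787 for RAB16B and 0.669 for RAB16C. Copies of a gene cluster can share reads, and records aligned to several places, 49.4% of the total in AM and 44% in PM on average, were not counted, so the RAB16 counts may be too low and their split is uncertain.

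A further 3 LEA genes, of 12 loci listed under dehydrin, LEA or ASR names, could be placed by name. None of the 3 had enough counts for the main test. Over all 12 loci, paired with a name or not, 7 were tested, of which 0 were higher, 4 lower and 3 not called. Their median log2 fold change was −1.71, and 28% of all tested loci were lower. The 4 lower loci were LOC_Os03g45280, listed as a dehydrin, and LOC_Os02g33820, LOC_Os04g34600 and LOC_Os11g06720, listed as ASR genes. None of these names could be paired, and the numbers do not stand for dehydrin and LEA genes alone. The summed level of the 12 loci was 607 to 1060 CPM in AM and 196 to 267 CPM in PM, mostly from LOC_Os03g45280 and LOC_Os11g06720. LOC_Os03g45280 fell from 404 ± 106 to 124 ± 19.8 CPM (SD, n = 3; log2 −1.71, SE 0.23, edgeR adjusted p = 0.000351). LOC_Os11g06720 fell from 337 ± 100 to 80.6 ± 12.3 CPM (SD, n = 3). RAB16D (LOC_Os11g26750), the neighbour of RAB16C, had 13, 69 and 2 counts in AM replicates 1, 2 and 3 and 1, 0 and 0 counts in PM replicates 1, 2 and 3. It was thus read in AM replicates 1 and 2 and hardly in the other 4 libraries. Its 84 AM counts against 1 PM count are a 93.5-fold ratio with an exact counting interval of 16.3 to 3740. The ratio was 32.1 without AM replicate 2 and 42.4 without PM replicate 3. RAB16D did not pass the filter on low counts, and without the filter its log2 fold change was −5.82 (SE 1.27, edgeR adjusted p = 0.00165).

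LEA3-2 (LOC_Os03g20680), a LEA gene on another chromosome than LEA3, had 7, 30 and 13 counts in AM replicates 1, 2 and 3 and 7, 2 and 4 in PM replicates 1, 2 and 3. It did not pass the filter either, and without it had a log2 fold change of −1.83 (SE 0.71, edgeR adjusted p = 0.0531). EMP1 (LOC_Os05g28210), an embryo LEA gene, had 3 counts in AM replicate 3 and none in the other libraries.

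The genes did not rank the AM libraries alike. LIP9, RAB25, RAB16C and RAB16D were highest in AM replicate 2, where LEA3 was lowest. SALT was highest in AM replicate 3, where RAB25 and RAB16D were lowest. The coefficient of variation over AM libraries was 30.6% for LIP9, 39.1% for SALT, 53.1% for LEA3 and 58.4% for RAB25, against a median of 20.8% over all tested loci. In PM it was 19.8%, 46.4%, 56.4% and 43.1% for the same genes, against a median of 17.9%. Low counts add to these values for RAB25, LEA3 and, in PM, SALT.

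A ratio of 2 genes within a library does not depend on how libraries are scaled. Per 100 counts of LIP9 there were 12.8, 10.3 and 25.5 counts of SALT in AM replicates 1, 2 and 3 and 13, 6.78 and 11.5 in PM replicates 1, 2 and 3. The groups overlapped, with means of 16.2 ± 8.15 and 10.4 ± 3.24 (SD, n = 3; exact two-sided permutation p = 0.5, adjusted over 3 ratios 0.5). For RAB25 the ratios were 4.04, 3.71 and 1.53 in AM and 3.05, 8.47 and 4.4 in PM, which overlapped as well (exact permutation p = 0.4, adjusted 0.5). For LEA3 they were 2.81, 0.495 and 2.67 in AM and 12.2, 10.2 and 4.95 in PM. All PM values of LEA3 relative to LIP9 were above all AM values, by a mean of 2.46 on the log2 scale (exact permutation p = 0.1, adjusted 0.3), and 0.1 is the smallest p that this test allows with 3 against 3 libraries. LEA3 counts thus made up a larger part relative to LIP9 in PM in these libraries, without passing a threshold of 0.05 by this test. Ratios without a pseudocount were added after the data had been seen, since one of 0.5 CPM is as large as the PM levels of these genes. With 0.5 CPM added, as first planned, the groups did not overlap for LEA3 and RAB25, while for SALT they did. On the log2 scale RAB25 over LIP9 was then 1.96 higher in PM (exact permutation p = 0.1, adjusted over 8 ratios 0.16), against 0.77 with no pseudocount.

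**Figure D3:**
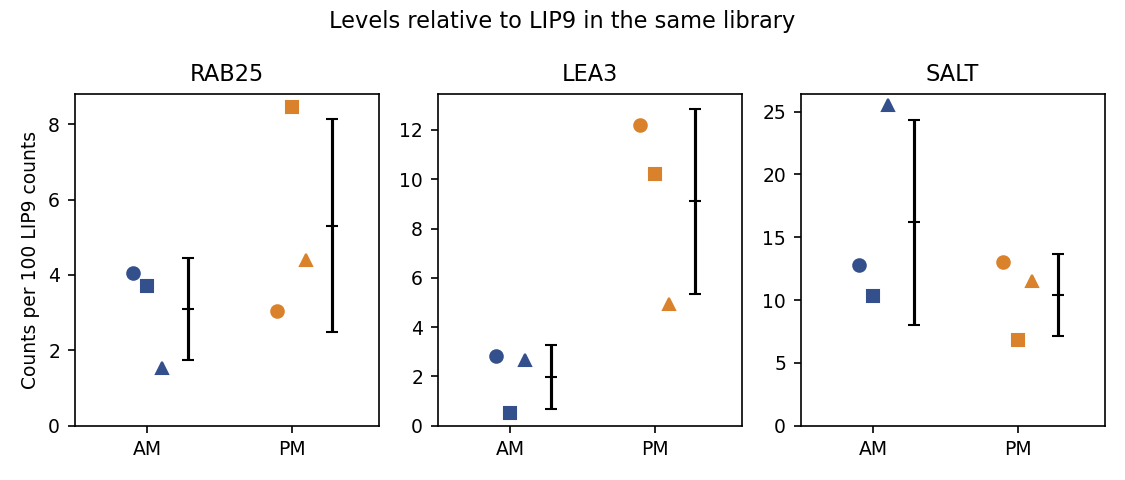
Counts of RAB25, LEA3 and SALT per 100 counts of LIP9 in the same library, by group; circles, squares and triangles are replicates 1, 2 and 3, and black bars are the mean ± SD of 3 libraries. Only for LEA3 do the AM and PM values not overlap.

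The scaling sets the size of the falls. When libraries were scaled only by their totals, the median of the tested loci was 0.84 on the log2 scale, and the fold changes became −2.57 for LIP9, −1.96 for RAB25, −3.10 for SALT and −0.20 for LEA3. The first 3 still passed the threshold, with edgeR adjusted p of 9.05e-06, 0.0125 and 0.000216. Changes are therefore given relative to the median locus.

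Genes of the ABA and osmotic stress pathways moved in both directions. Of the 44 pathway genes that could be placed by name, 34 were tested, of which 9 were higher and 11 lower in PM and 14 did not pass; this is 58.8% called, against 55.9% of all tested loci. Their median log2 fold change was −0.18. The balance depends on the pairing with names: over all 70 list entries, paired or not, 54 were tested, of which 10 were higher and 21 lower, with a median of −0.60. By library totals alone the numbers were 18 higher and 5 lower. Without AM replicate 1 or PM replicate 1 the number higher was 5, and without AM replicate 2 or PM replicate 3 it was 4.

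Among the SAPK kinases, 4 of 10 were higher, 2 lower and 4 not called, with a median of −0.14. For comparison, here and for the groups below, 28% of all tested loci were higher and 28% lower. SAPK9 rose from 2.44 ± 0.196 to 348 ± 20.2 CPM (SD, n = 3), or by 7.16 on the log2 scale (SE 0.20; edgeR adjusted p = 7.49e-07), and SAPK7 rose by 2.11 (SE 0.23). SAPK4 went the other way, from 91.4 ± 9.86 to 15 ± 2.33 CPM (SD, n = 3; log2 −2.60, SE 0.18, edgeR adjusted p = 9.69e-06). SAPK1 was at −0.65 (SE 0.15) and, with library totals alone, at 0.20 with no call. Without AM replicate 1, 4 SAPK genes were lower.

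Of the 9 clade A phosphatase genes, 6 were tested, 3 were higher, 1 lower and 2 not called, with a median of 0.13. PP2C09 fell from 10.8 ± 1.92 to 3.17 ± 0.47 CPM (SD, n = 3; log2 −1.76, SE 0.24, edgeR adjusted p = 0.000313). PP2C30 was higher by 1.11 (SE 0.33, edgeR adjusted p = 0.0199) and PP2C08 by 1.89 (SE 0.60, edgeR adjusted p = 0.0256). PP2C30 was no longer called without AM replicate 2 (1.09) or PM replicate 3 (0.74). PP2C08 was no longer called at 1.55 and 1.70 with AM replicate 1 or 2 left out, nor at 2.04 and 1.59 with PM replicate 1 or 3 left out. The number of higher phosphatase genes was 0 without AM replicate 2 or PM replicate 3 and 1 without AM replicate 1 or PM replicate 1.

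PYL11 was the only ABA receptor gene placed by name, at 0.46 (SE 0.20, edgeR adjusted p = 0.0784), and at 1.31 with a call by library totals alone. The gene paired with it also answered to the name of another listed receptor locus, and only gene order decided between them. PYL11 does not stand for the receptors. Over all 8 receptor entries, paired or not, 7 were tested, of which 0 were higher, 3 lower and 4 not called, with a median of −1.19. Of the 3 ABA transcription factor genes placed by name, BZIP23 fell from 14 ± 2.11 to 3.75 ± 0.574 CPM (SD, n = 3; log2 −1.89, SE 0.22, edgeR adjusted p = 0.000139). TRAB1 was at 0.04 (SE 0.19, edgeR adjusted p = 0.868), and at 0.89 with a call by library totals alone. VP1, which acts in seeds, had no count in any library. Over all 9 transcription factor entries, paired or not, 6 were tested, of which 1 was higher, 3 lower and 2 not called. Their median was −0.69. The unpaired LOC_Os09g28310 fell from 105 ± 8.31 to 6.39 ± 0.472 CPM (SD, n = 3; log2 −4.03, SE 0.17, edgeR adjusted p = 1.11e-06), and the unpaired LOC_Os01g64730 was higher, at 0.67 (SE 0.16).

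Of the 5 genes for ABA synthesis and breakdown, 4 were tested, with 1 higher and 3 lower. ZEP, an early enzyme of the route to ABA, was at −6.55 (SE 0.28) and the ABA hydroxylase gene ABA8OX3 at −2.49 (SE 0.20). Another hydroxylase gene, ABA8OX1, was at 1.42 (SE 0.47; edgeR adjusted p = 0.0309). It was not called at 1.33 and 1.21 with AM replicate 1 or 2 left out, nor at 1.23 and 1.20 with PM replicate 1 or 3 left out. Of the 5 DREB genes, 3 were tested and 0 passed by the edgeR test or DESeq2, with 1 at an unadjusted p of 0.05. DREB2A came nearest, at 0.52 (SE 0.20, edgeR adjusted p = 0.0506), and passed by limma-voom (0.51, adjusted p = 0.045), with upper-quartile scaling (0.54), without AM replicate 3 (0.58) and by library totals alone (1.36). DREB1A, the factor named above for LIP9, was at −1.03 (SE 0.57, edgeR adjusted p = 0.158).

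Of 8 other osmotic stress genes, 1 rose, 4 fell and 3 gave no call, and the median was −0.38. LTI6A and LTI6B, a pair of genes for small membrane proteins induced by low temperature, parted. LTI6A fell from 62.2 ± 10.5 to 27.1 ± 2.63 CPM (SD, n = 3; log2 −1.20, SE 0.17, edgeR adjusted p = 0.000474) and LTI6B rose from 69.8 ± 5.74 to 143 ± 12.4 CPM (SD, n = 3; 1.03, SE 0.15, edgeR adjusted p = 0.000543). The stress transcription factor gene NAC5 was lower, at −1.27 (SE 0.19, edgeR adjusted p = 0.000659). By library totals alone 4 of these genes rose and 0 fell, with LTI6A at −0.34 and NAC5 at −0.42.

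**Figure D4:**
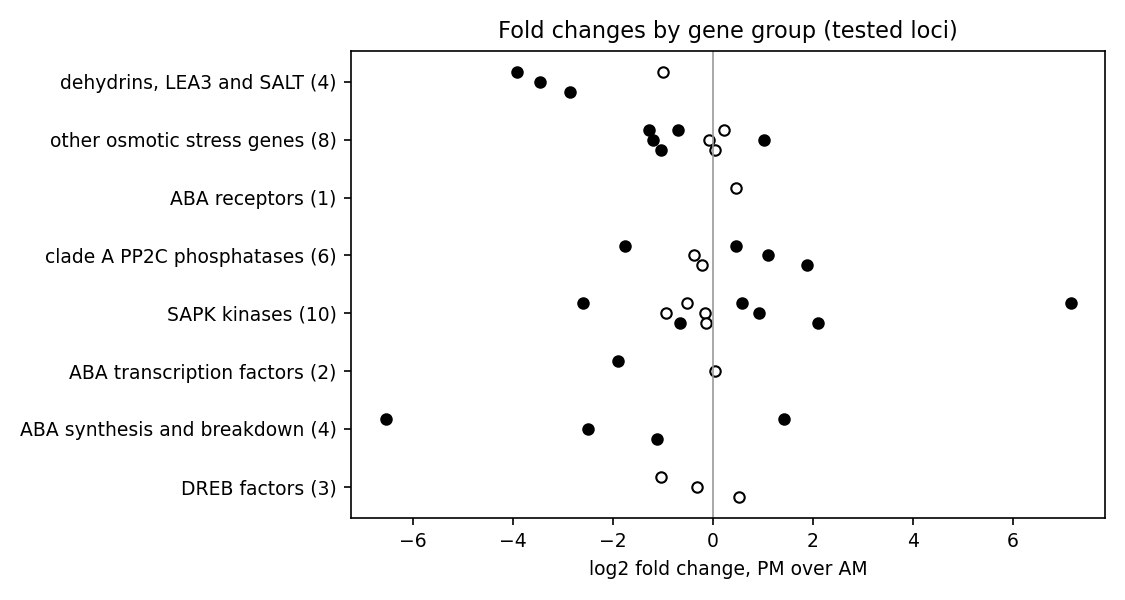
Log2 fold change of PM over AM for each tested gene that could be placed by name, by group, with the number of genes in brackets. Filled symbols have an edgeR adjusted p below 0.05. Unpaired list loci are not drawn. Among these, LOC_Os06g36670 (−4.46) and LOC_Os09g28310 (−4.03) were lower than SALT, and LOC_Os01g64730 (0.67) was higher in PM. With unpaired entries, 10 pathway loci were higher and 21 lower. LIP9, RAB25 and SALT lie to the left of most pathway genes drawn, ZEP and SAPK9 mark the ends of the range, and 14 of the 34 pathway genes are open symbols.

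Likeness of pattern was measured as the Euclidean distance over the 6 libraries between log2(CPM + 0.5) values, each gene centred on its own mean. Among the 34 tested pathway genes, SAPK4 was nearest to both SALT, at 0.991, and LIP9, at 1.03, and ABA8OX3 came next for both, at 1.17 and 1.37. PP2C09 and LTI6A were nearest to RAB25, at 0.819 and 0.822. PP2C06 and BADH2, neither of which was called, were nearest to LEA3, at 0.933 and 0.965. The added 0.5 CPM exceeds the PM levels of RAB25 and shrinks the changes of low genes, so that on this scale the PM minus AM difference was −1.30 for RAB25, −0.47 for LEA3 and −2.88 for SALT, and their neighbours match these shrunken changes. Among 18220 loci with a mean of at least 1 CPM, the nearest to RAB25 was LOC_Os11g16590, at 0.282, and the nearest to SALT was LOC_Os03g02514, at 0.298, and the files pair neither with a name.

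Many LEA genes are seed genes, and whole seedlings can carry remains of the seed. Of 5 seed storage and embryo markers, 4 never exceeded 3 counts in a library, VP1 being at 0 in all. The summed level of the 5 was 1.87 to 2.54 CPM in AM and 3.40 to 4.95 CPM in PM, nearly all of it GLUA2, a glutelin gene. The amylase gene RAMY3D, active in germinating grain, was at 1.10, 1.46 and 0.0679 CPM in AM replicates 1, 2 and 3 and at 9.04, 2.65 and 6.30 CPM in PM replicates 1, 2 and 3, while RAMY3E had no count. GLUA2 and RAMY3D were higher in every PM library than in any AM library, a lack of overlap that 64.1% of all tested loci showed. Of 4 root markers, LSI2 and NAS1 had no count, and the summed level was 16.8 to 30.4 CPM in AM and 6.76 to 7.73 CPM in PM, mostly LSI1, a silicon transporter gene. The part of leaf, panicle, seed or root tissue in the fall of LIP9, RAB25 and SALT was not tested.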

How the data were processed

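Strand-specific libraries were built from 2 µg of total RNA of whole seedlings (3 AM, 3 PM), per the labels' protocols. The authors deposited raw counts per locus; the submitters' processing notes name Trimmomatic 0.33, STAR and HTSeq 0.6.1. Genome build, annotation and strand setting are not given in the sources used, so reads of overlapping or antisense genes cannot be told apart. The 5 summary lines of each file stayed out of library sizes and tests; reads on no feature made up 2.92% to 6.26% of all records and ambiguous reads 0.112% to 0.171%.

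Both groups were compared in R 4.3.3 with edgeR 4.0.16, by its quasi-likelihood test (TMM factors, filterByExpr with a minimum count of 10, 20548 loci, Benjamini-Hochberg adjustment over all of them). Poisson and binomial intervals are exact, at 95%, and cover counting error only. The script was tested on simulated data. Replicates differed by more than sampling noise (chi-square per degree of freedom 18.7 to 133). Names were checked against RefSeq genes of assembly ASM3414082v1, a table without the identifiers of the files, by symbol or synonym, chromosome and gene order; 69 of 102 loci were paired, among them all 7 described here, with RAB16A under its synonym RAB21. Lists were counted over paired loci, except where the text gives all loci or entries of a list. From each list the text names up to 2 called loci per direction with the smallest p, or failing that the locus with the smallest p. RAB16D, LEA3-2, EMP1, VP1, TRAB1 and DREB1A were added after their values were seen, as were unpaired list loci given by identifier. Members and lists were chosen with earlier results of these data known. Alternatives were RLE, upper-quartile and library-total scaling, a minimum mean of 5 CPM, no filter, DESeq2 1.42.0, limma-voom (limma 3.58.1), a replicate block, a threshold of 0.01 and leaving out each library.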

Additional observations from a re-analysis of the deposited data

How the results depend on the processing

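LIP9 kept its direction and call under all 15 alternatives (log2 fold change −3.62 to −2.57), SALT under all 14 that could be run (−4.26 to −3.10) and RAB25 under all 13 (−3.26 to −1.96); LEA3 was lower and not called under all 14 (−1.54 to −0.20). With a mean of at least 5 CPM required, only LIP9 was left to test, so 1 gene was lower. Leaving out 1 library gave 2 or 3 lower genes, 2 where RAB25 failed the filter. Library totals alone gave 11201 higher and 2764 lower loci, against 5748 and 5745. Over the pathway genes, 18 were then higher and 5 lower. Higher pathway genes numbered 4 with a mean of at least 5 CPM, 4 at a threshold of 0.01 and 4 to 10 with a library left out; with unpaired list entries included, which was added after the data had been seen, 10 were higher and 21 lower. Summed ratios with a library left out were added then too. The cause was not tested. Within libraries, the PM minus AM difference in the log2 ratio of SALT to LIP9 was 0.39 with a pseudocount of 0.5 CPM, −0.28 with 0.1 CPM and −0.57 with none. That of RAB25 to LIP9 was 1.96, 1.25 and 0.77 in the same order. For RAB16B over RAB16A the log2 ratio differed between PM and AM by 0.04 with 0.5 CPM added. This PM minus AM difference ran from −0.05 to 0.15 with a library left out. For RAB16C over RAB16B the difference was −0.03, ran from −0.18 to 0.14 with a library left out, and was 0.04 with a pseudocount of 0.1 CPM. These differences rest on few counts. The added 0.5 CPM exceeds the levels of RAB16A, RAB16B and RAB16C in every library and shrinks any change in their ratios. SAPK1 went from −0.65 to 0.20 by library totals. Replicate numbers are not stated to pair the samples. Deviations of same-numbered libraries correlated at −0.09, −0.38 and 0.04, and 1 of 6 libraries correlated best with its own number. So few libraries cannot decide whether same-numbered samples were handled together. With a replicate block 5077 loci were higher and 5060 lower, and 3 of the genes were lower still, with LIP9 at −3.42, RAB25 at −2.60, SALT at −3.94 and LEA3 at −1.05.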
